A study of Rattus norvegicus with 9 samples.

Results

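The 4 genes Cd74, RT1-Da, RT1-Ba and B2m, which act in antigen presentation, were followed through 9 rat kidney libraries. Their identifiers in the deposited table are ENSRNOG00000018735, ENSRNOG00000032844, ENSRNOG00000000451 and ENSRNOG00000017123 in that order. They are 4 of the 22637 genes in the deposited table, and all 4 were among the 17584 tested. The members were taken from a fixed list of identifiers with their symbols, chosen with earlier results of these data known. Counts of members that pass a test, set beside the share of all genes, are therefore description only. The table itself pairs no identifier with a symbol, and the RefSeq gene table used here (47357 rat genes) held 0 Ensembl identifiers. The symbols therefore rest on that list. Polyadenylated RNA was sequenced from kidneys of SD rats (Sprague-Dawley, an outbred stock) of 3 groups with 3 libraries each. The groups are controls, chronic kidney disease (CKD) as a model, and treatment with mesenchymal stem cells (MSC, stromal cells used in cell therapy). The series title speaks of infusing the cells into the renal parenchyma, under ultrasound guidance, in a CKD rat model. The sources used here give no age, no way of inducing the disease, no origin or dose of the cells and no sampling time. Nothing in the labels says that replicates were separate animals, so p-values measure only how far these libraries spread, and some of that spread may be technical.

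Antigen presentation shows peptides to T cells on 2 kinds of surface complex. Class I complexes, found on nearly every nucleated cell, carry peptides from inside the cell, and B2m encodes beta-2 microglobulin, the light chain they all share. Class II complexes carry peptides from taken-up material and are found mainly on dendritic cells, macrophages and B cells, although kidney tubule cells can gain them in inflammation. RT1 is the rat major histocompatibility complex. RT1-Da encodes the alpha chain of the class II molecule that corresponds to human HLA-DR, RT1-Ba the alpha chain of the one that corresponds to HLA-DQ, and Cd74 the invariant chain that escorts class II molecules and blocks their groove until peptide is loaded. Class II genes are known to be switched on by interferon-gamma through the coactivator CIITA, which acts on a shared promoter module of an X box and a Y box.

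The promoters are shown because letters of the known class II module can be looked for in them. Any link between these letters and the levels in the 3 groups was not tested. All 4 members were found by symbol in the RefSeq promoter table (build GRCr8, 33469 promoters of 300 bases). Each stretch runs from position -160 to position -31 before the start that the table uses, 5′ to 3′ on the + strand. The build differs from the Rnor_6.0 named for the counts, so these positions belong to the sequences only. Capitals mark matches to the letters named in the next paragraph.
Cd74, chr18:56527046-56527175: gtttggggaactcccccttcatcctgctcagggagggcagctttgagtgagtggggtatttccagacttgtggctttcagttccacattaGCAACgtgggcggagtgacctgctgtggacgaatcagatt
RT1-Da, chr20:4515255-4515384: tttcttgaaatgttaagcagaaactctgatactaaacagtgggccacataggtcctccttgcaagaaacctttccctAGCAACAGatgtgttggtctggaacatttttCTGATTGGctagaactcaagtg
RT1-Ba, chr20:4576897-4577026: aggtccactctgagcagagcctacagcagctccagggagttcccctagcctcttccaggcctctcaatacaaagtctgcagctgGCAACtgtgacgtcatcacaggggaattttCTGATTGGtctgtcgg
B2m, chr3:129549170-129549299: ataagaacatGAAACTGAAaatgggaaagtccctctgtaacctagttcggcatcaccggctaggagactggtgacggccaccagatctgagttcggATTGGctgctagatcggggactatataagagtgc

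Both alpha chain promoters held the Y box letters CTGATTGG, at -52 in RT1-Da and at -46 in RT1-Ba. Over all promoters, 3.50% held these letters on either strand. The X box letters AGNNACNG matched at -83 in RT1-Da and, in RT1-Ba, only downstream of the start, at 35. They were found in 51.2% of all promoters. The inner letters GCAAC, added after these sequences had been read, stood at -82 in RT1-Da, -76 in RT1-Ba and -70 in Cd74, and in 35.1% of all promoters. In both alpha chain promoters GCAAC began 30 bases before CTGATTGG. That spacing, also chosen after the sequences were read, occurred in 5 promoters (0.0149%): RT1-Da, RT1-Ba, RT1-DOa, RT1-Ha and Stard7. The inverted CCAAT letters ATTGG lie inside CTGATTGG and stood alone at -64 in B2m and, on the other strand, at -189 in Cd74, against 37.5% of all promoters. B2m also held GAAANNGAA, letters of an interferon-stimulated response element, at -150 (9.71% of all promoters), and TTCNNNGAA, letters of a gamma-activated site (8.87%), was found in none of the 4. On GRCr8 chromosome 20 the 2 alpha chain genes lie with 3 annotated genes between them: RT1-Db2, Arrb2-ps and RT1-Db1. A match describes letters, not a bound site.

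Counts were deep for every member. Library totals ran from 47633344 to 58546847, and member counts from 718 to 64083, so the counting error of the lowest was 3.73%. Levels are given as CPM (a count put on a common scale across libraries by its library total and TMM factors). Since CPM also grows with transcript length, levels are compared between libraries and not between genes. RT1-Da and RT1-Ba belong to a family of similar and highly polymorphic genes, and the sources used here do not say how reads matching several members were assigned, so their values carry that uncertainty. The rats are of an outbred stock, and the part of alleles that differ from the reference build in these values was not tested. MSC libraries had the lowest totals, 47633344 to 48767298, with no overlap with the other groups, and the part of library totals in the differences of MSC kidneys was not tested. On the first principal component of all tested genes (56.9% of the variance), MSC kidneys scored 66.8 to 118 and controls -77.2 to -45.8. CKD replicate 2, at 9.32, stood apart from the other CKD kidneys, at -39.9 and -71.6.

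In bulk tissue fewer cells of a type and less RNA per cell cannot be told apart, which holds for every level given here. The invariant chain gene Cd74 had 275, 230 and 332 CPM in control replicates 1, 2 and 3. In CKD kidneys it had 482, 432 and 266 CPM, and in MSC kidneys 856, 1215 and 588 CPM. CKD replicate 3 lay inside the control range, the other CKD kidneys lay above it, and all 3 MSC kidneys lay above every other library. Group means were 279 ± 51.3, 393 ± 113 and 886 ± 315 CPM (SD, n = 3 each), in the order control, CKD, MSC. Control and CKD, the neighbours in that order with overlapping values, did not differ beyond their spread.

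The HLA-DR-like alpha chain gene RT1-Da was even in controls, with 78.2, 65.4 and 74.2 CPM. In CKD kidneys it had 202, 198 and 72.8 CPM. MSC kidneys had 291, 384 and 173 CPM. CKD replicates 1 and 2 thus stood well above all controls and also above MSC replicate 3, while CKD replicate 3 stood among the controls. Means had the same order as for Cd74, with 72.6 ± 6.52 CPM (SD, n = 3) for control, 157 ± 73.3 for CKD and 283 ± 106 for MSC libraries. Its CKD values overlapped both other groups.

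RT1-Ba, the HLA-DQ-like alpha chain gene, differed more between libraries of a group than the other members did. Control kidneys had 13.5, 17.6 and 58.2 CPM, CKD kidneys 119, 20.2 and 50.9 CPM, and MSC kidneys 46.6, 130.3 and 47.7 CPM. In each group 1 library was at least 2-fold above both others: control replicate 3, CKD replicate 1 and MSC replicate 2. The means, 29.8 ± 24.7, 63.4 ± 50.7 and 74.9 ± 48.01 CPM (SD, n = 3 each) in control, CKD and MSC kidneys, had the same order as those of the other class II members, but every pair of groups overlapped. CKD replicate 2 was among the highest CKD libraries for Cd74 and RT1-Da and the lowest for RT1-Ba.

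The light chain gene B2m had 671, 599 and 646 CPM in controls and 720, 731 and 451 CPM in CKD kidneys. MSC kidneys had 1246, 1169 and 989 CPM, all above every other library. CKD replicate 3 had the lowest value of the 9. Means were 639 ± 36.6 CPM (SD, n = 3) for control, 634 ± 158 for CKD and 1135 ± 132 for MSC libraries, so control and CKD were next to each other and not ordered beyond their spread.

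**Figure D1:**
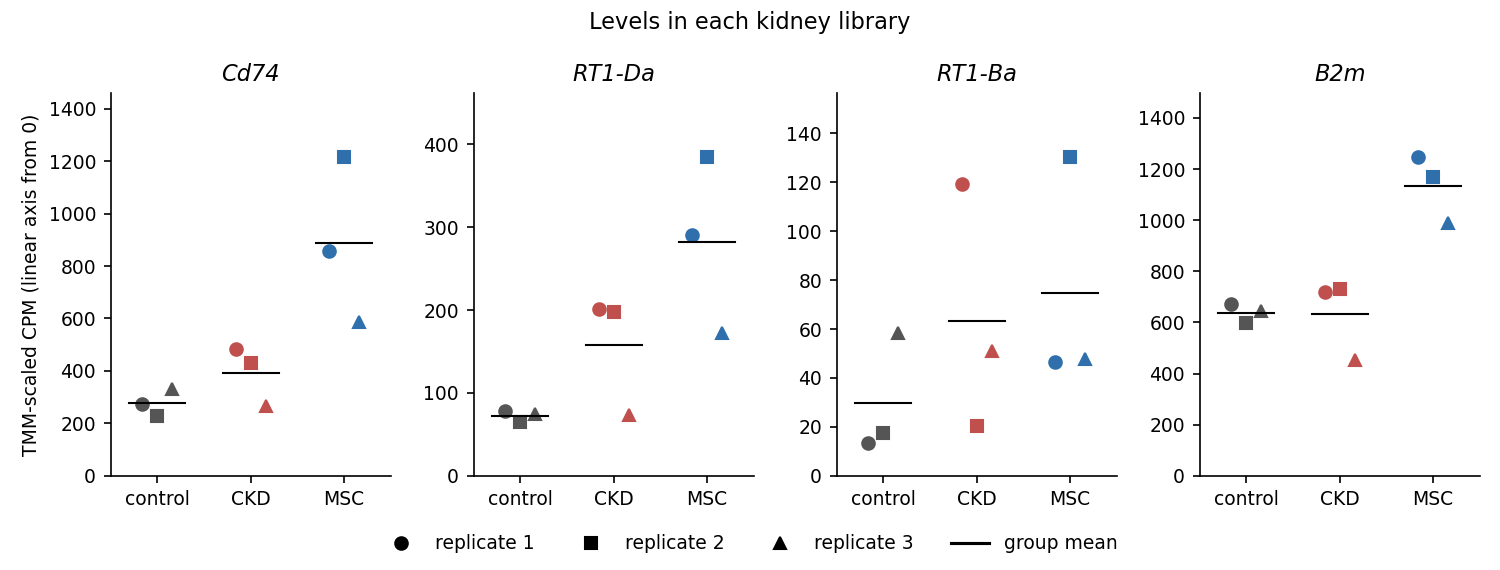
TMM-scaled CPM of the 4 genes (vertical axes, linear from 0, a scale for each gene) in control, CKD and MSC kidneys; each point is 1 library, its shape the replicate number, and the line the group mean. Cd74 and B2m were higher in all 3 MSC kidneys than in any other library, CKD replicate 3 lay apart from CKD replicates 1 and 2 for Cd74, RT1-Da and B2m, and RT1-Ba overlapped between all groups.

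CKD kidneys were compared with controls to ask what the disease model changed. None of the 4 members passed edgeR's quasi-likelihood test (adjusted p under 0.05), with a background of 0% of all tested genes. DESeq2 also called 0 of the 4 (0.404% of all genes) and so did limma-voom (0% of all genes). Without adjustment 1 member, RT1-Da, had p under 0.05, as had 6.55% of all genes. RT1-Da was 2.17-fold higher on average, a log2 fold of 1.12 ± 0.39 (SE, edgeR adjusted p = 0.756), with a 95% interval from 1.18-fold to 3.99-fold before any correction for the number of genes. The Cd74 log2 fold was 0.50 ± 0.30 (SE, edgeR adjusted p = 0.779). RT1-Ba had a log2 fold of 1.09 ± 0.74 (SE, edgeR adjusted p = 0.804), and its interval ran from 0.664-fold to 6.84-fold. That log2 fold was 0.26 without CKD replicate 1 and 2.03 without control replicate 3. B2m stood at -0.01 ± 0.20 (SE, edgeR adjusted p = 0.994), with an interval from 0.728-fold to 1.35-fold. CKD and control values overlapped for all 4 members, and 11.8% of all genes had no overlap. Without CKD replicate 2 the count of called members stayed 0.

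MSC kidneys were compared with CKD kidneys to ask what accompanied the treatment. The labels name no group infused without cells, so the cells and the infusion itself cannot be told apart. Cd74 and B2m were higher in MSC kidneys and RT1-Da and RT1-Ba did not pass the test, so 2 of 4 members were called. The background was 22.8% of all genes called in either direction and 11.4% called higher (edgeR quasi-likelihood test, threshold 0.05 after adjustment). Cd74 rose 2.25-fold, a log2 fold of 1.17 ± 0.30 (SE, edgeR adjusted p = 0.0264). B2m rose 1.79-fold, a log2 fold of 0.84 ± 0.20 (SE, edgeR adjusted p = 0.0205). The RT1-Da fold was of the same size as that of B2m, at 0.84 ± 0.39 on the log2 scale, with a larger SE, and did not pass (edgeR adjusted p = 0.142). RT1-Ba had 0.24 ± 0.73 (SE, edgeR adjusted p = 0.833), an interval from 0.374-fold to 3.73-fold. MSC and CKD values did not overlap for Cd74 and B2m, as for 43.3% of all genes.

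Both calls were lost when certain single libraries were left out. For Cd74 leaving out CKD replicate 1 gave an adjusted p of 0.0503, and CKD replicate 3 one of 0.0819. Leaving out MSC replicate 1 gave 0.0603 for Cd74 and 0.0590 for B2m, and MSC replicate 2 gave 0.0894 and 0.0668. When the 3 controls were kept out of the model, adjusted p was 0.0566 for Cd74 and 0.0544 for B2m. In those fits the Cd74 log2 fold was between 0.88 and 1.34 and that of B2m between 0.77 and 0.82 (edgeR). Both calls stood when CKD replicate 2 was dropped, at 1.24 for Cd74 (edgeR adjusted p = 0.0375) and 0.95 for B2m (edgeR adjusted p = 0.0180). That fit called 25.9% of all genes.

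MSC kidneys were also set against controls, to ask how treated kidneys compared with those outside the disease model. This comparison shares the MSC libraries with the one against CKD kidneys. Cd74, RT1-Da and B2m were higher in MSC kidneys, 3 of 4 members, against 32.3% of all genes called in either direction and 16.9% called higher (edgeR quasi-likelihood test, adjusted p under 0.05). RT1-Da had the largest fold of the 4 at 3.89, a log2 fold of 1.96 ± 0.40 (SE, edgeR adjusted p = 0.00932). Cd74 rose 3.18-fold, a log2 fold of 1.67 ± 0.31 (SE, edgeR adjusted p = 0.00689), and B2m 1.78-fold, a log2 fold of 0.83 ± 0.20 (SE, edgeR adjusted p = 0.0156). The RT1-Ba log2 fold was 1.33 ± 0.75 (SE, edgeR adjusted p = 0.197), with an interval from 0.779-fold to 8.12-fold. It was 0.66 without MSC replicate 2 and 2.28 without control replicate 3. Folds of different members were not tested against each other in this fit. No value overlapped between MSC and control kidneys for the 3 called members, and 52.6% of all genes had no overlap. Cd74 and RT1-Da were called in this comparison without any single library, whereas B2m had adjusted p = 0.0515 without control replicate 2 and 0.0506 without MSC replicate 2.

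**Figure D2:**
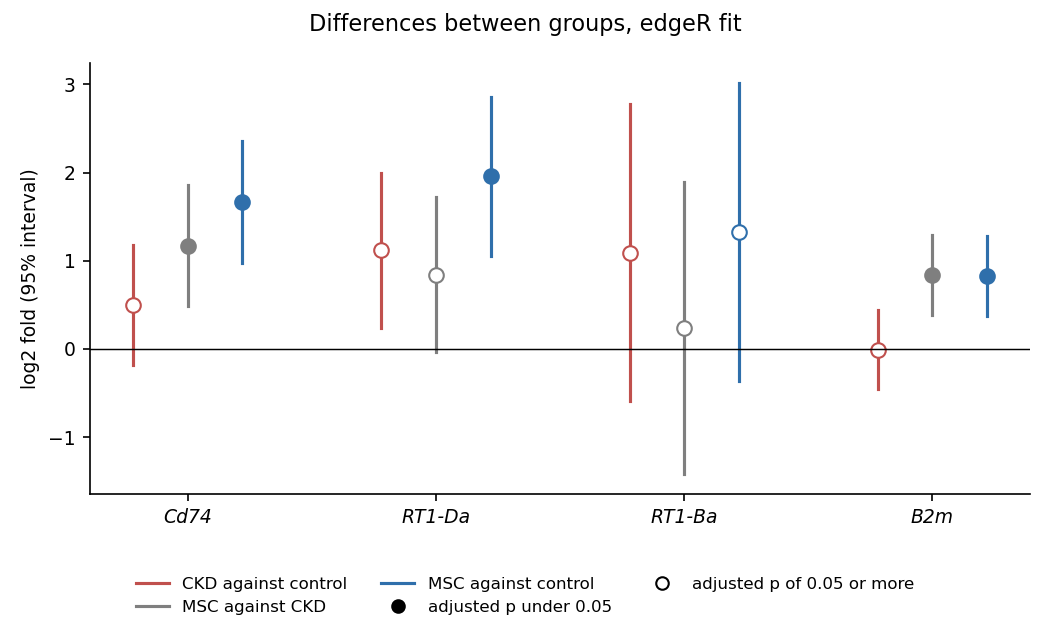
Log2 folds of the 4 genes (vertical axis) in the 3 comparisons from the edgeR fit, with 95% intervals not corrected for the number of genes; filled points passed an adjusted p under 0.05. Cd74 and B2m were called in both comparisons with MSC kidneys, RT1-Da passed against control alone, and all 3 intervals of RT1-Ba included 0.

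In the joint test of the 3 groups, Cd74 (edgeR adjusted p = 0.0115), RT1-Da (0.0198) and B2m (0.0192) passed and RT1-Ba (0.363) did not, against 26.2% of all genes. RT1-Da no longer passed that test (adjusted p in brackets) without control replicate 1 (0.0531), control replicate 2 (0.0581), control replicate 3 (0.0545), MSC replicate 1 (0.0608) or MSC replicate 2 (0.0718), and B2m without MSC replicate 1 (0.0740) or MSC replicate 2 (0.0791). Markers of dendritic cells, macrophages, B cells, T cells and tubules, interferon-gamma targets and the other class I and class II pathway genes were listed by symbol, and since no identifier could be paired with one, these lists were not computed and the part of other cell types in these values was not tested.

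**Figure D3:**
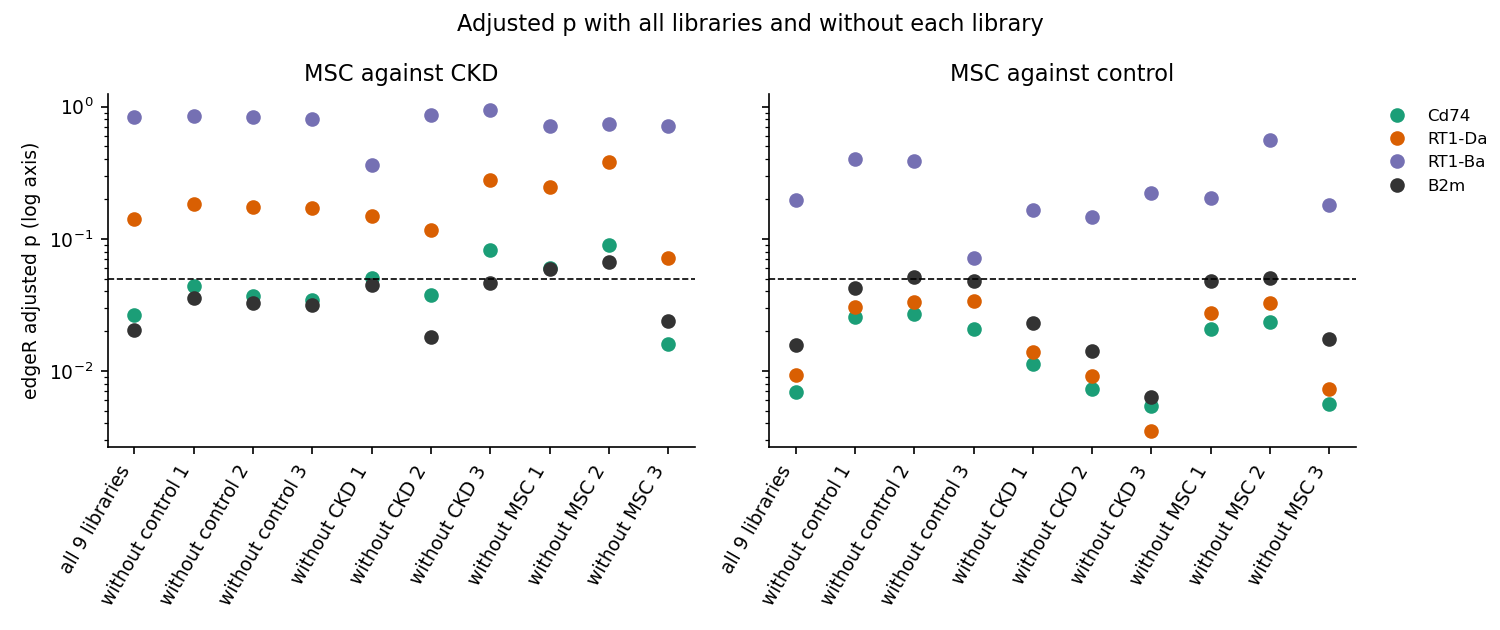
EdgeR adjusted p of the 4 genes (vertical axis, log scale, dashed line at 0.05) with all 9 libraries and without each library in turn (horizontal axis), for MSC against CKD and MSC against control kidneys. Cd74 and RT1-Da stayed under the line throughout against control, and against CKD kidneys Cd74 crossed it in 4 of the 9 fits and B2m in 2.

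The members also differed in how much replicates scattered. The SD of log2 CPM within groups, pooled over the 3 groups, was 0.25 for B2m, 0.43 for Cd74, 0.60 for RT1-Da and 1.097 for RT1-Ba. The biological coefficient of variation estimated by edgeR was 0.185, 0.265, 0.334 and 0.603 in the same order, beside a median of 0.215 over all tested genes. RT1-Ba had a larger dispersion than 89.6% of all tested genes, and a larger SD than 93.3% of them in control, 94.0% in CKD and 92.2% in MSC kidneys. RT1-Da was more even than most genes in controls, with an SD of 0.13 on the log2 scale, and reached 0.84 in CKD and 0.59 in MSC kidneys, against medians over all genes of 0.22, 0.24 and 0.24. From the lowest to the highest of the 9 libraries the levels spanned 2.76-fold for B2m, 5.29-fold for Cd74, 5.88-fold for RT1-Da and 9.64-fold for RT1-Ba.

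Ratios between members within a library do not depend on how libraries are scaled, and transcript length drops out of their difference between groups. The ratios of RT1-Da and of Cd74 to the class I light chain were higher in all CKD and all MSC kidneys than in any control. These contrasts share the control libraries and the B2m counts. The share of all genes whose ratio to B2m separates in this way was not computed. For levels, 11.8% of all genes had no overlap in CKD against control and 52.6% in MSC against control. The log2 ratio of RT1-Da to B2m counts was -3.10, -3.19 and -3.12 in control kidneys. It was -1.83, -1.89 and -2.63 in CKD kidneys and -2.101, -1.60 and -2.52 in MSC kidneys. In CKD replicate 3 the RT1-Da and Cd74 levels lay among the controls and B2m was the lowest of all. The geometric mean of RT1-Da to B2m was 2.03 times the control value in CKD and 2.09 times in MSC kidneys. Its MSC to CKD difference was 0.04 on the log2 scale. For Cd74 to B2m the log2 ratio was -1.29, -1.38 and -0.96 in control, -0.58, -0.76 and -0.76 in CKD and -0.54, 0.06 and -0.75 in MSC kidneys. Their geometric means were 1.43 and 1.74 times that of controls in CKD and MSC kidneys.

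These 4 contrasts with control, and that of RT1-Da to Cd74 between MSC and control kidneys (1.203 times the control mean), had no overlap. The share of all genes whose ratio to Cd74 separates was not computed. Each of these 5 of the 18 ratio contrasts made had a two-sided exact permutation p of 0.1, the smallest that 3 against 3 allows. Their adjusted p was 0.36 over the 18, so none could pass the threshold. Between MSC and CKD kidneys the values overlapped for RT1-Da to B2m (exact permutation p = 0.9) and for Cd74 to B2m (exact permutation p = 0.2). Since no contrast could pass, the test cannot decide whether these ratios differed.

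Among the class II members, RT1-Da and Cd74 kept the closest proportion. Their log2 ratio had a within-group SD of 0.26, below that of either gene alone, and spanned 2.05-fold over the 9 libraries. It was -1.81, -1.81 and -2.16 in control, -1.26, -1.13 and -1.87 in CKD and -1.56, -1.66 and -1.77 in MSC kidneys. The class I light chain came close to this, with a within-group SD of 0.28 for Cd74 to B2m and 0.37 for RT1-Da to B2m. How often other pairs of genes keep such a proportion was not computed. RT1-Ba kept no such proportion in these counts. Its log2 ratio to RT1-Da had a within-group SD of 1.14 and spanned 7.68-fold, and its ratio to Cd74 had a within-group SD of 0.96 and spanned 5.28-fold. None of the 9 contrasts of RT1-Ba ratios separated 2 groups (exact permutation p from 0.3 to 1).

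**Figure D4:**
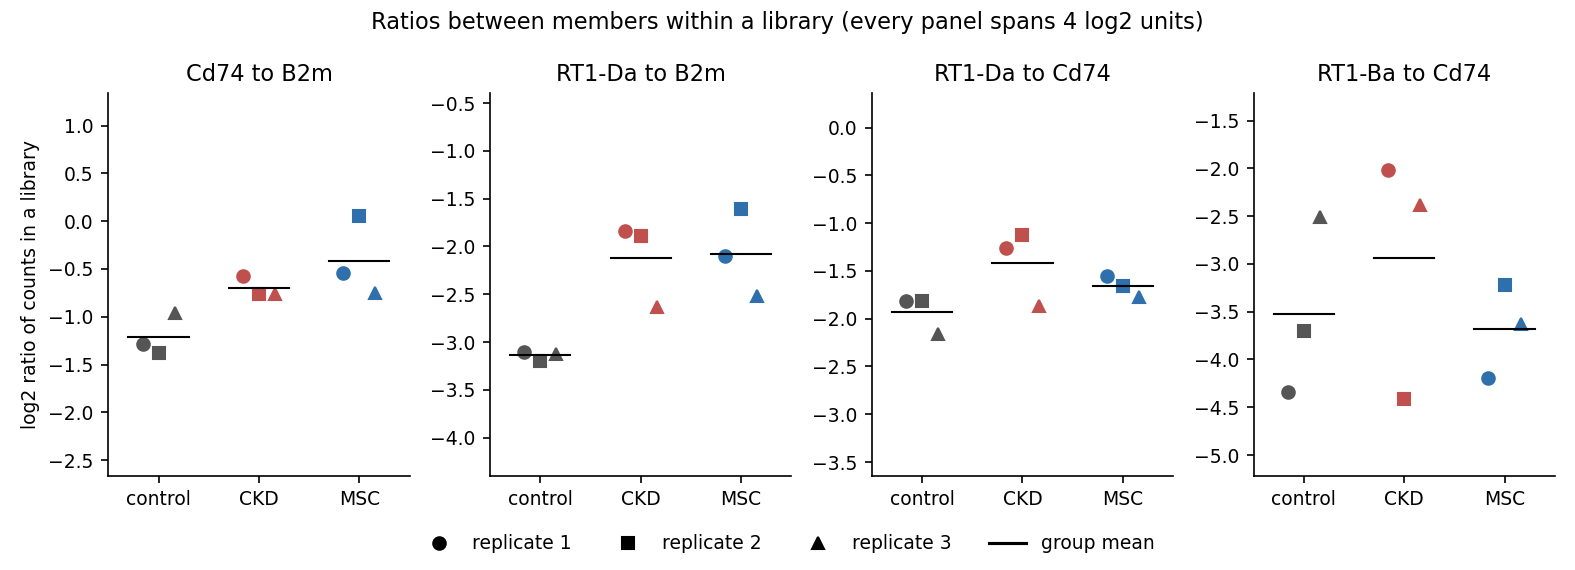
Log2 ratios of counts between 2 members within a library (vertical axes, each spanning 4 log2 units so that scatter can be compared); points are libraries, shapes replicate numbers and lines group means. RT1-Da to B2m was even in controls and higher in all CKD and MSC kidneys, but no exact test of a ratio could pass the threshold. The share of all genes whose ratio to B2m separates in this way was not computed. RT1-Da to Cd74 spanned 2.05-fold and was highest in CKD replicates 1 and 2, and RT1-Ba to Cd74 scattered within every group.

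The pattern of the 3 class II members was averaged over the 9 libraries, each gene centred and scaled, and compared with all 13463 tested genes of average log2 CPM of at least 1. As a description over 9 libraries that share the group structure, the Pearson r to that profile was 0.96 for Cd74, 0.93 for RT1-Da and 0.81 for RT1-Ba, which are part of it, and 0.79 for B2m, which is not. Of the 13463 genes, 278 had a higher r than RT1-Ba and 431 a higher r than B2m. Outside the members it was highest for ENSRNOG00000026762 (r = 0.98) and ENSRNOG00000047864 (r = 0.95), which have no symbol here. The first was a low gene, with 1.15, 0.836 and 1.497 CPM in control, 4.71, 2.45 and 1.13 in CKD and 5.45, 9.43 and 3.26 in MSC kidneys. Like Cd74 and RT1-Da it was lowest among CKD kidneys in replicate 3 and highest of all in MSC replicate 2. The second had 3.75 to 6.93 CPM in control, 6.15 to 9.88 in CKD and 13.4 to 23.1 in MSC kidneys. Both genes were picked for likeness to the members, so their differences between groups are not given as tests.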

How the data were processed

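The authors deposited raw counts per Ensembl gene for 9 kidney libraries (polyadenylated RNA, strand-specific preparation, per the labels' protocols). Per the submitters' processing notes, cutadapt, HISAT2, StringTie and the build Rnor_6.0 were used. The sources used here do not give versions, annotation, strand setting or the handling of reads that match several genes. From the deposited counts, genes were kept by filterByExpr (17584 of 22637), scaled by TMM and tested with edgeR 4.0.16 (quasi-likelihood, robust, R 4.3.3) on all 9 libraries, the group being the single term. P-values were two-sided and adjusted by Benjamini-Hochberg across every tested gene, with 0.05 as threshold. Standard errors came from the F statistic, log2 CPM used a prior count of 2, and 0.5 was added to counts in ratios, which were compared by exact permutation. The fit was checked on simulated counts, and the ratio test on a few made-up values with a known answer. Alternatives were DESeq2 1.42.0, limma-voom (limma 3.58.1), other scalings, no filter, 2 groups only, a replicate block and leaving out each library. Replicates differed far beyond counting noise (chi-square per gene of at least 63.0). The members and lists were chosen with earlier results of these data known. All 4 members were named, with the 2 other genes most like the class II profile. Planned gene lists were not computed, because no table used here pairs Ensembl identifiers with symbols.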

Additional observations from a re-analysis of the deposited data

How the results depend on the processing

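Cd74 and RT1-Da in MSC against control kidneys, the absence of calls in CKD against control, and RT1-Ba in every comparison kept their side of the threshold under all 18 alternatives. In MSC against CKD, a fit of only the 6 libraries compared called 0 members and 16.6% of all genes, on fewer samples. Its log2 folds were 0.82 for B2m and 1.15 for Cd74. Without single libraries the number of called members ran from 0 to 2, and the share of all genes called from 8.37% to 25.9%. The Cd74 fold ran from 0.88 to 1.39, the B2m fold from 0.64 to 0.95 and the RT1-Ba fold from -0.43 (without MSC replicate 2) to 1.07. B2m in MSC against control ran from 0.76 to 0.92. B2m in CKD against control, never past the threshold, was 0.073 with library size only, 0.011 without a filter and 0.0050 with upper-quartile factors, and from -0.13 to 0.18 without single libraries. Joint adjusted p ran from 0.0138 to 0.0791 for B2m and from 0.00844 to 0.0718 for RT1-Da. Differences of log2 ratios that changed sign without single libraries ran, for RT1-Ba to B2m in MSC against CKD, from -1.22 to 0.069. Those of RT1-Ba to Cd74 in MSC against control ran from -0.57 to 0.34. RT1-Ba to RT1-Da lay between -0.43 and 0.95 for CKD against control, from -1.38 to 0.0064 in MSC against CKD and from -0.90 to 0.19 in MSC against control, and RT1-Da to B2m in MSC against CKD from -0.21 to 0.27. Beyond the effect of fewer samples, the cause was not tested.

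With the replicate block no member call changed, and 0, 2 and 3 members were called in the 3 comparisons. No label states that equal numbers mark paired libraries. Deviations of 3 of 9 same-numbered pairs correlated above 0.1, and 6 of 9 libraries correlated best with their own number, which is only a hint in the data. Counting error was at most 3.73% for these genes, so depth adds little to their spread between libraries.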
